A study of Rattus norvegicus with 24 samples.

Results

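Dopamine in the retina is made by a sparse set of amacrine cells, interneurons of the inner retina. The genes described here are those for its synthesis (Th, Ddc, Gch1), vesicular storage (Slc18a2), breakdown (Maoa, Maob) and receptors (Drd1, Drd2, Drd4). Every probe whose RefSeq accession maps to 1 of these 9 symbols was taken. This gave 8 probes, 1 for each of 8 genes, out of 33911 probes on the array, of which 4675 could be given the symbol of one of 4013 genes in this way. No probe was found for Maoa by this rule, and Maoa is not described further.

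Retinal RNA came from male Sprague Dawley rats, which had been injected with streptozotocin (STZ), a toxin of the insulin-producing cells of the pancreas, or with citrate vehicle alone. Retinas were taken 1 month (1M) or 3 months (3M) after injection. The 4 groups (1M Control, 1M STZ, 3M Control and 3M STZ) held 6 arrays each, numbered in the labels and called rats 1 to 6 here. The study's animal data list fewer control rats at the earlier time point than there are arrays, so whether every array came from a separate rat is not settled, and p-values measure the spread between arrays. Diabetic rats were kept without insulin and had been selected for a raised blood glucose soon after injection, so the groups compare uncontrolled toxin-induced diabetes, with any direct effect of the toxin, against vehicle. The rats' age in weeks is not given in the sources used here.

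In dopaminergic amacrine cells, tyrosine hydroxylase (Th) converts tyrosine to DOPA in the rate-limiting step and requires tetrahydrobiopterin, a cofactor whose synthesis begins with GTP cyclohydrolase (Gch1). DOPA decarboxylase (Ddc) then forms dopamine, the vesicular monoamine transporter (Slc18a2) loads it into vesicles, and monoamine oxidases (Maoa, Maob) degrade it. Release rises with light and acts on D1-type receptors (Drd1), which raise cyclic AMP, and on D2-type receptors (Drd2, Drd4), which lower it, with Drd4 found mainly on photoreceptors.

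The array files hold no probe sequences, so the regions around the start of 4 members are shown in their place. Th and Slc18a2 are shown because they share a motif, and Maob and Drd2 because their adjusted p-values at 3 months were the lowest. The sequences are from RefSeq (build GRCr8), whose promoter table held all 9 members, and run 5′ to 3′ on the gene's strand from 250 bases before to 50 after a transcript start. The array files name no build. Capitals mark the cyclic AMP response element TGACGTCA, the GC box GGGCGG and the NBRE motif AAAGGTCA, each searched on both strands. The order is Th at chr1:207508169-207508468 on the minus strand, Slc18a2 at chr1:268399771-268400070 on the plus strand, Maob at chrX:8490155-8490454 on the plus strand and Drd2 at chr8:58605153-58605452 on the plus strand.
Th: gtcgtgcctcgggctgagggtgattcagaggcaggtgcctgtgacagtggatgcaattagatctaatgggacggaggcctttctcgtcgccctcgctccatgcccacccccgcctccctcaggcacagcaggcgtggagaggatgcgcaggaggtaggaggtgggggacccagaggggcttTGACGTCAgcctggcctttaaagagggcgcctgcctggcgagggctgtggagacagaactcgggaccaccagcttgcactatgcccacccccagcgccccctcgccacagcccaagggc
Slc18a2: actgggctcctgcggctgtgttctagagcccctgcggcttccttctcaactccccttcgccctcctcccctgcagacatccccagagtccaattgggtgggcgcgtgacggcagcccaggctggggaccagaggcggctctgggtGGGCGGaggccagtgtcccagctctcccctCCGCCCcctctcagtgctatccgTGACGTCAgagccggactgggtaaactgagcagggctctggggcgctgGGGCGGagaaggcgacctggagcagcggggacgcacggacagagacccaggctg
Maob: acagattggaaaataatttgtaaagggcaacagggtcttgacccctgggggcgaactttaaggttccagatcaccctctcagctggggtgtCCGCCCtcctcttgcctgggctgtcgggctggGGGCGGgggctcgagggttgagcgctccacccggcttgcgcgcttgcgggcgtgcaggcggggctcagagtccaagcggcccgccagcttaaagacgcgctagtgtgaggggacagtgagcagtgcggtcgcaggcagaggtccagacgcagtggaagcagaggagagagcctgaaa
Drd2: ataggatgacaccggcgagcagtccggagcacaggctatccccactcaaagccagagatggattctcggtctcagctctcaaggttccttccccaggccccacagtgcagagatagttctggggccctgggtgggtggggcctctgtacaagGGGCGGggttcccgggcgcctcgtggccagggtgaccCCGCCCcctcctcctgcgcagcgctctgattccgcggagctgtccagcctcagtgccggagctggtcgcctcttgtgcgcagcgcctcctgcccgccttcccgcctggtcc
The cyclic AMP response element, the binding motif of the CREB factors, lay 69 bases before the start in Th and 52 bases before it in Slc18a2. None of the other 7 members held it in its windows, and it was present in 1.83% of the 33469 promoters in the table. The GC box, the binding motif of Sp1, was present in 33.1% of all promoters and was matched 2 times in Maob, 2 times in Drd2 and 3 times in Slc18a2. The NBRE motif of the Nr4a nuclear receptors was present in 1.43% of all promoters and was matched in 1 member, Ddc. A match is a description of these letters and not of binding.

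Each value below is the background-subtracted brightness of a spot divided by the median of the rat probes on its array, called the scaled intensity. Since probes differ in how well they bind, levels were compared within a probe and not between genes. The background was read from 62 probes for bacterial genes on the same arrays, and a member was called above background on an array where it exceeded their 95th percentile. Whether bacterial RNA had been added to the samples, which would raise this limit, is not given in the sources used here. By this measure the 2 time points were unlike sets of arrays. The median scaled intensity of the bacterial probes lay between 0.0589 and 0.137 on the 12 arrays of 1 month and between 0.447 and 0.750 on the 12 arrays of 3 months. Levels at 1 and 3 months are therefore given side by side with no test, since time after injection and array set cannot be told apart. Within 3 months, the STZ arrays were dimmer before scaling (median intensity 125 to 164, against 149 to 308 in controls) and had a wider spread (interquartile range 2.07 to 2.70 on the log2 scale, against 1.48 to 2.23). The part of these array differences in the results at 3 months was not tested separately from treatment. The 3M Control array of rat 2 gave the lowest control value for 6 of the 8 members, and that of rat 6 the highest control value for the same 6.

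**Figure D1:**
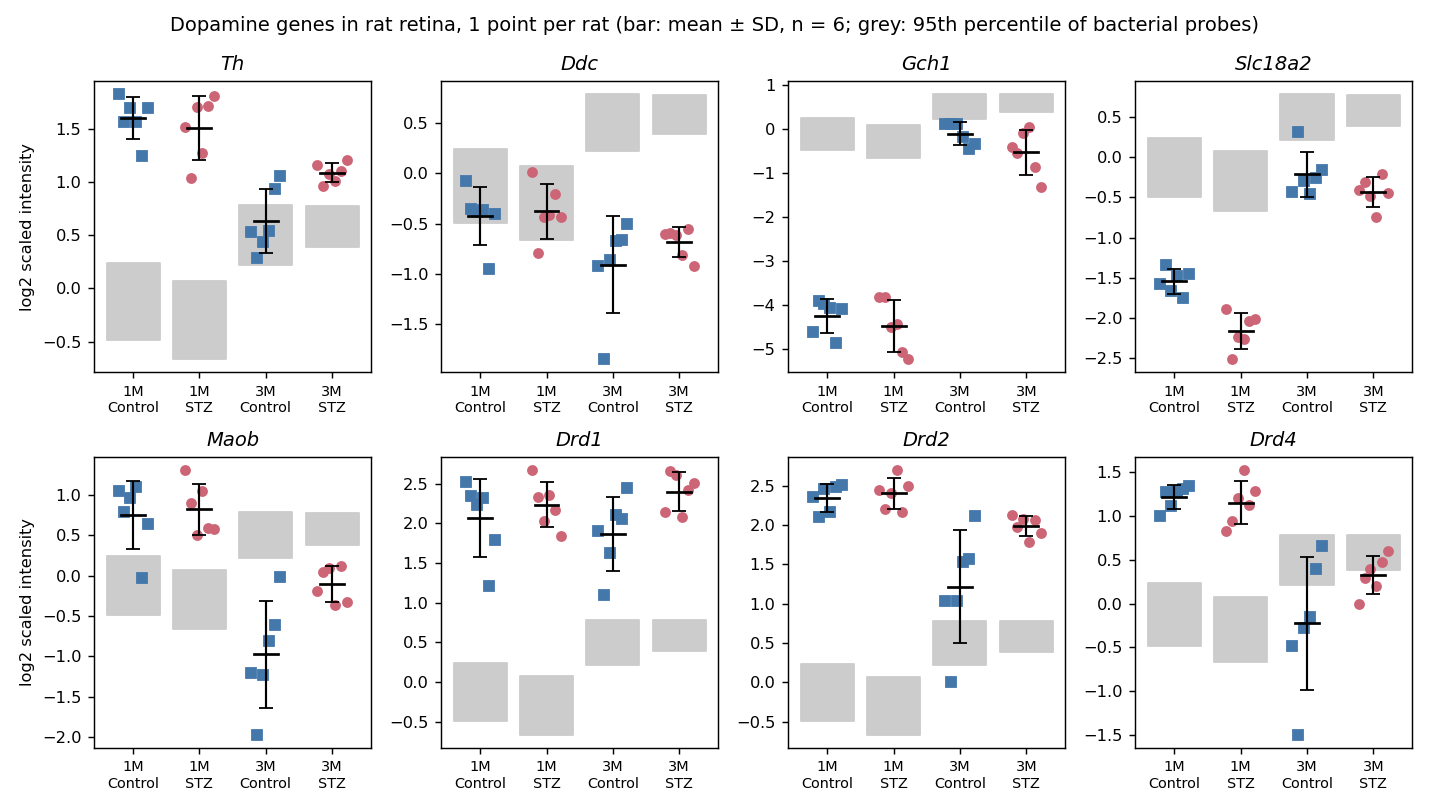
Log2 scaled intensity (y axis) of each member on the 24 arrays, by group (x axis), with squares for control and circles for STZ rats, a black bar for the mean ± SD (n = 6) and a grey band for the range over the arrays of the 95th percentile of the bacterial probes. Compared with its own array's bacterial percentile, Drd1 was higher on all 24 arrays and Th and Drd2 on all but 1, Gch1 and Slc18a2 were not higher on any, and Maob was higher on the 12 arrays of 1 month only.

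Th, which marks dopaminergic amacrine cells, was well measured, with all but 1 array above background. At 1 month its scaled intensity ran from 2.37 to 3.55 (median 3.11) in controls and from 2.06 to 3.50 (median 3.06) in STZ rats. The 2 groups covered nearly the same range. At 3 months it ran from 1.22 to 2.09 (median 1.45) in controls and from 1.95 to 2.31 (median 2.14) in STZ rats. All 6 STZ rats were above the control median and 4 of them above the highest control, rat 6. The log2 fold change, STZ minus Control, was -0.09 ± 0.15 (SE) in the 1 month comparison and 0.46 ± 0.15 at 3 months, and the latter was called, at an adjusted p = 0.0141 by limma.

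Differences at 3 months were spread over the whole array. In all, 54.1% of the 22025 tested probes were called, 50.5% as higher and 3.55% as lower in STZ rats, and the median over the tested probes was 0.44 on the log2 scale. Th exceeded this median by 0.01, and 51.4% of tested probes had a lower log2 fold change. At 1 month only 0.00908% of probes were called and the median was 0.01. In bulk retina, more RNA per cell and more cells of the type that makes it cannot be told apart.

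Ddc, the decarboxylase, was dim. It was above background on 2 control and 4 STZ arrays at 1 month and on none at 3 months. At 1 month it ran from 0.518 to 0.948 (median 0.770) in controls and from 0.577 to 1.01 (median 0.745) in STZ rats. At 3 months it ran from 0.279 to 0.706 (median 0.590) in controls and from 0.527 to 0.681 (median 0.656) in STZ rats, inside the control range. STZ minus Control came to 0.04 ± 0.18 on the log2 scale after 1 month and to 0.23 ± 0.18 after 3 months (adjusted p = 0.289, limma), and the 95% interval of the latter ran from -0.15 to 0.60.

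Gch1, which starts synthesis of the cofactor, was too dim to be tested. It was at or near the bottom of the arrays of 1 month, with 0.0341 to 0.0657 (median 0.0587) in controls and 0.0266 to 0.0706 (median 0.0451) in STZ rats. At 3 months the same probe read 0.727 to 1.08 (median 0.978) in controls and 0.398 to 1.02 (median 0.716) in STZ rats. No array of either time point put it above background, and it was 1.37 times the median bacterial probe in 3M controls (median of 6). Its higher reading at 3 months went with higher bacterial probes on the same arrays and was not read as a rise. In a fit of all rat probes Gch1 stood at -0.22 ± 0.25 (log2, STZ minus Control) at 1 month and at -0.43 ± 0.25 at 3 months (adjusted p = 0.154, limma). The median of the 11824 dim rat probes was -0.44 at 3 months, so Gch1 lay at the middle of the dim probes.

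Slc18a2, the vesicular transporter, was also too dim to be tested and was not above background on any array. At 1 month the 6 controls read 0.337, 0.395, 0.315, 0.361, 0.296 and 0.366 (rats 1 to 6), and the 6 STZ rats 0.269, 0.176, 0.212, 0.208, 0.244 and 0.249. Every STZ rat was below every control in scaled intensity, a pattern seen in 0.192% of all 33849 rat probes. Relative to the median bacterial probe of the same array the groups overlapped. The ratio ran from 2.31 to 4.08 in 1M controls and from 1.81 to 4.15 in 1M STZ rats. The log2 fold change in the fit of all rat probes was -0.61 ± 0.14 (unadjusted p = 0.000175), and it did not pass adjustment over all rat probes (adjusted p = 0.236, limma), of which 0.0118% were called at 1 month. Of the dim probes, 3.18% had a lower log2 fold change at 1 month. At 3 months Slc18a2 ran from 0.731 to 1.24 (median 0.829) in controls and from 0.597 to 0.866 (median 0.745) in STZ rats, and the groups overlapped. That difference, -0.22 ± 0.14 on the log2 scale (adjusted p = 0.186, limma), was less negative than the median of the dim probes, -0.44.

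Maob, the oxidase more often linked to glia, was above background on all 12 arrays of 1 month and on none of 3 months. At 1 month it ran from 0.981 to 2.14 (median 1.84) in controls and from 1.42 to 2.48 (median 1.68) in STZ rats, overlapping groups with a log2 fold change of 0.07 ± 0.23. At 3 months the controls read 0.434, 0.256, 0.427, 0.569, 0.653 and 0.987 (rats 1 to 6), and the STZ rats 0.876, 1.03, 1.07, 0.775, 1.09 and 0.795. Control rats 1 to 5 were below every STZ rat, and control rat 6 lay inside the STZ range. The log2 fold change at 3 months was 0.87 ± 0.23 (adjusted p = 0.00441, limma), the highest of the 6 tested members, 0.43 above the median of all tested probes and above 91.4% of them. Both groups lay in the range of the bacterial probes, with the controls at 0.698 times and the STZ rats at 1.68 times the median bacterial probe (medians of 6). The log2 fold change at 3 months is therefore not read as a fold of Maob RNA.

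Drd1, the D1 receptor of horizontal, bipolar and ganglion cells, was above background on all 24 arrays. At 1 month it ran from 2.31 to 5.75 (median 4.84) in controls and from 3.59 to 6.37 (median 4.77) in STZ rats. At 3 months it ran from 2.13 to 5.43 (median 3.94) in controls and from 4.21 to 6.30 (median 5.50) in STZ rats. All 6 STZ rats were above the control median and 3 above the highest control. Drd1 had a log2 fold change of 0.17 ± 0.21 at 1 month and of 0.53 ± 0.21 at 3 months, where it was called (adjusted p = 0.0377, limma) and was 0.08 above the median of all tested probes.

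Drd2, the receptor that includes the autoreceptor of dopaminergic amacrine cells, was above background on all arrays but that of 3M Control rat 2. At 1 month it ran from 4.27 to 5.68 (median 5.29) in controls and from 4.49 to 6.49 (median 5.37) in STZ rats. At 3 months it ran from 1.00 to 4.32 (median 2.47) in controls and from 3.45 to 4.36 (median 4.05) in STZ rats. The STZ rats were close together, and 5 of the 6 controls were below all of them, whereas control rat 6 lay within their range. For Drd2 the log2 fold change was 0.06 ± 0.21 in the 1 month groups and 0.77 ± 0.21 in the 3 month groups (adjusted p = 0.00508, limma), 0.33 above the median of all tested probes and above 85.5% of them.

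Drd4, the photoreceptor-enriched D2-type receptor, was above background on all 12 arrays of 1 month but on only 1 array of 3 months, that of a control. At 1 month it ran from 1.99 to 2.52 (median 2.43) in controls and from 1.78 to 2.87 (median 2.24) in STZ rats. At 3 months it ran from 0.355 to 1.58 (median 0.860) in controls and from 0.995 to 1.52 (median 1.27) in STZ rats, and no STZ rat was above the highest control. Drd4 had a log2 fold change of -0.07 ± 0.23 at 1 month and of 0.55 ± 0.23 at 3 months (adjusted p = 0.0411, limma). It was 0.11 above the median of all tested probes.

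Of the 6 members bright enough to be tested, 0 were called at 1 month by limma, 0 had an unadjusted p under 0.05 and 0 were called by the methods' test, which called 1.19% of all tested probes, while Slc18a2 was too dim to be in this count. Their 95% intervals at 1 month all lay between -0.53 and 0.60 on the log2 scale. At 3 months 5 were called, all higher (Th, Maob, Drd1, Drd2 and Drd4), where 50.5% of all tested probes were called higher. Before scaling, the median intensity of 3M STZ arrays was below that of 3M controls for Th (312 against 354), Drd1 (770 against 847) and Drd4 (183 against 203). It was 568 in both groups for Drd2 and higher in STZ rats for Maob (140 against 117). The median log2 fold change of the 6 members was 0.54 at 3 months, beside 0.44 for all tested probes, and 0.05 at 1 month, beside 0.01. The interaction, the log2 fold change at 3 months less that at 1 month, was called for 0 of the 6 members, beside 15.5% of all tested probes, and 3 had an unadjusted p under 0.05. These were Th, with a difference of 0.55 on the log2 scale (adjusted p = 0.0672, limma), Maob with 0.80 (adjusted p = 0.0788, limma) and Drd2 with 0.71 (adjusted p = 0.0841, limma).

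**Figure D2:**
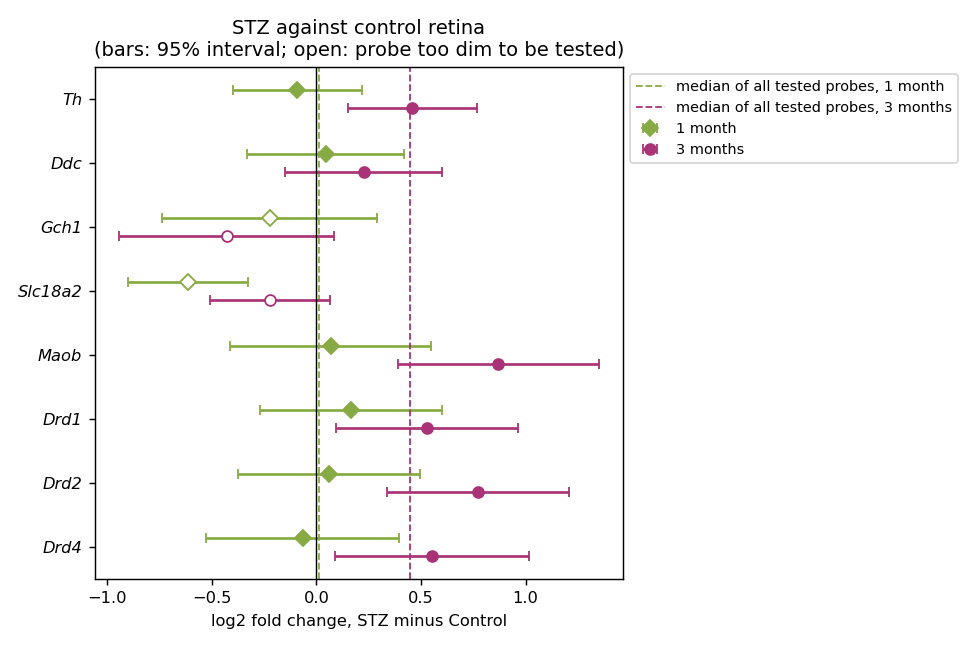
Log2 fold change, STZ minus Control (x axis), of each member (y axis) at 1 month (diamonds) and 3 months (circles), with 95% intervals, open symbols for the 2 probes too dim to be tested, and dashed lines for the median of all tested probes, 0.01 at 1 month and 0.44 at 3 months. The 3 month intervals of all 6 tested members include the dashed line at 0.44, and 5 of them exclude 0.

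The calls at 3 months changed with the scaling of the arrays and with the test. With quantile normalization over all arrays the median of all tested probes was 0.16 and 2 members were called (Maob at 1.66 and Ddc at 0.72), where 24.6% of all tested probes were called higher. With quantile normalization within each time point 1 member was called (Maob at 0.94), where 20.2% of probes were called higher. Th then had a log2 fold change of 0.17 (adjusted p = 0.380, limma) and Drd1 of 0.05. When each probe was ranked among the rat probes of its array, Th moved from a median percentile of 65.1 in 3M controls to 69.0 in STZ rats, and Drd1 from 86.4 to 85.8. Maob moved from 15.7 to 47.8 and Ddc from 21.5 to 32.7, and these 2 were called on the ranks, where 24.1% of all tested probes were called higher (differences of the group means of 26.7 and 11.3 percentage points; adjusted p = 0.000743 and 0.0149, limma). The methods' test called 0 members and 16.9% of all tested probes (0 members and 8.72% after adjustment), with unadjusted p-values from 0.0121 (Th) to 0.313 (Ddc), by an unequal-variance one-way test compared here beside limma's adjusted p. With array brightness as a covariate 1 member was called (Maob at 0.87), where 17.8% of probes were called higher, and with array spread as a covariate 0 members and 0% of probes were called. Where a probe had to pass the dimness limit on all 24 arrays, 3 members could be tested and all 3 were called (Th, Drd1 and Drd2), where 59.2% of probes were called higher. With the replicate number as a block 5 members were called, where 49.2% of probes were called higher. The interaction was called for Maob with quantile normalization over all arrays and on the ranks (10.8% of probes each), and for Th, Maob, Drd1 and Drd2 with array weights (46.9% of probes).

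**Figure D3:**
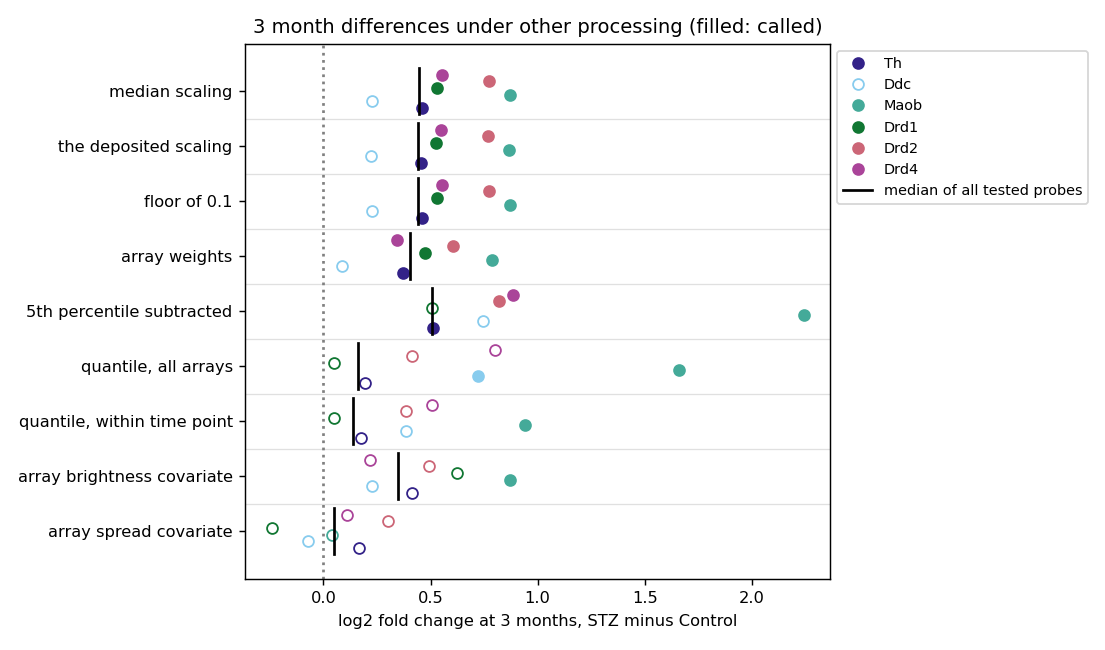
Log2 fold change at 3 months, STZ minus Control (x axis), of the 6 tested members under 9 ways of processing (y axis), with filled circles for called members and a black line for the median of all tested probes. Th stayed beside the black line under median scaling and both quantile normalizations, Maob lay to its right in every setting but the array spread covariate, and Drd1 moved to -0.24 in that setting.

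Without the 3M Control array of rat 2, 3 members remained called (Th, Maob and Drd2), where 37.6% of all tested probes were called higher. Drd1 then had a log2 fold change of 0.37 and Drd4 of 0.30. The same 2 members also lost their calls without the 3M Control array of rat 1 or 3, or without the 3M STZ array of rat 2, 3, 5 or 6. Without the 3M Control array of rat 6, 5 members were called, where 59.2% of all tested probes were called higher, and the interaction was called for 4 members (Th, Maob, Drd2 and Drd4), where 41.9% of all tested probes were called.

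The members varied together to different degrees. With each group centred on its mean, Maob and Drd1 had a Pearson correlation of 0.90 over the 24 arrays, Drd2 and Drd4 of 0.85, and Maob and Ddc of 0.81. Th was closest to Ddc, at 0.66. The 2 dim genes stood apart, with correlations of Slc18a2 with the other members between -0.36 and 0.20, and of Gch1 between -0.45 and 0.15. These are descriptions over arrays that share a scaling, and the 3M Control arrays of rats 2 and 6 enter all of them. Of 2812 named genes, the one most like Th by this measure was Palm (0.83), and the fifth had a correlation of 0.68. Maob was most like Nnat (0.95, the fifth 0.92) and Drd2 most like Pcsk7 (0.96, the fifth 0.94).

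The other genes of the pathway were taken from a list of 48, of which 31 had a probe and 27 were tested. At 3 months the median of the 27 was 0.65 on the log2 scale, and 21 were called, all higher, beside 50.5% of all tested probes. After quantile normalization over all arrays 5 of these 21 (Pts, Gng7, Grk2, Caly and Ywhah) were below 0. Of the same 21, 5 (Dbh, Slc6a2, Drd5, Adcy5 and Pitx3) were not above background on any array of 3 months. The differences of these 5 lie in the range of the bacterial probes and are not read as folds of RNA. At 1 month 0 were called by limma, 1 had an unadjusted p under 0.05 and 1 was called by the methods' test and 1 with array weights (1.63% of all tested probes), with a median of 0.06.

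In the tetrahydrobiopterin list, 3 of 3 tested genes were called higher at 3 months, beside 50.5% of all tested probes and a median of 0.44 over them. These were Gchfr (0.75), the feedback regulator of GTP cyclohydrolase, Qdpr (0.71), which regenerates the cofactor, and Pts (0.52), its second biosynthetic enzyme. Pts was -0.18 after quantile normalization, and Gchfr was not above background on any 3M Control array. At 1 month Gchfr had a log2 fold change of 0.63 ± 0.16 (adjusted p = 0.572, limma), and the other 2 were at 0.17 or below. Of the other catecholamine enzymes 1 of 2 was called, Dbh (0.38), which makes noradrenaline from dopamine. Dbh was not above background on any array of 3 months. Aldh2, an aldehyde dehydrogenase, stood at 0.57 and did not pass. Of the transporters, Slc6a2, the noradrenaline transporter, was called (0.67) though not above background in either group, with median scaled intensities of 0.421 in 3M controls and 0.649 in 3M STZ rats, and Slc18a1 did not pass (0.22). A second, dim probe of Slc6a2 read 0.20, and both probes of Slc6a3, the dopamine transporter, were too dim to be tested.

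Both other receptors were called higher at 3 months, beside 50.5% of all tested probes. Drd3 had a log2 fold change of 1.49 ± 0.23 at 3 months (adjusted p = 0.000105, limma), against 0.11 at 1 month, and was above background on 2 control and 6 STZ arrays of 3 months. Drd5 was called (adjusted p = 0.000254, limma) with both groups below background, at median scaled intensities of 0.356 in 3M controls and 0.660 in 3M STZ rats. Of the receptor signalling genes 11 of 15 were called higher, beside 50.5% of all tested probes, and 3 of the 11 (Gng7, Grk2 and Caly) were below 0 after quantile normalization. The highest value was that of Gnai2 (1.16), an inhibitory G protein alpha subunit. Gnai1, another such subunit, had the lowest value, 0.14, while its second, dim probe read -0.60 in the fit of all rat probes and was called lower there (adjusted p = 0.00418, limma). For Arrb2, which encodes a beta-arrestin, the 2 probes went opposite ways, 0.65 for the brighter and -0.95 for the dim one in the fit of all rat probes. The dim probe of Arrb2 was called lower in that fit (adjusted p = 0.00901, limma). Of the regulators of dopaminergic genes 3 of 3 were called higher, beside 50.5% of all tested probes. Ywhah, which encodes a 14-3-3 protein, stood at 0.71 and was below 0 after quantile normalization. Pitx3 stood at 0.77 and was not above background on any array of 3 months. The highest was Nr4a1 (1.29), an orphan nuclear receptor of the family that binds the NBRE motif. Nr4a2, the family member needed by dopamine neurons, was too dim to be tested.

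**Figure D4:**
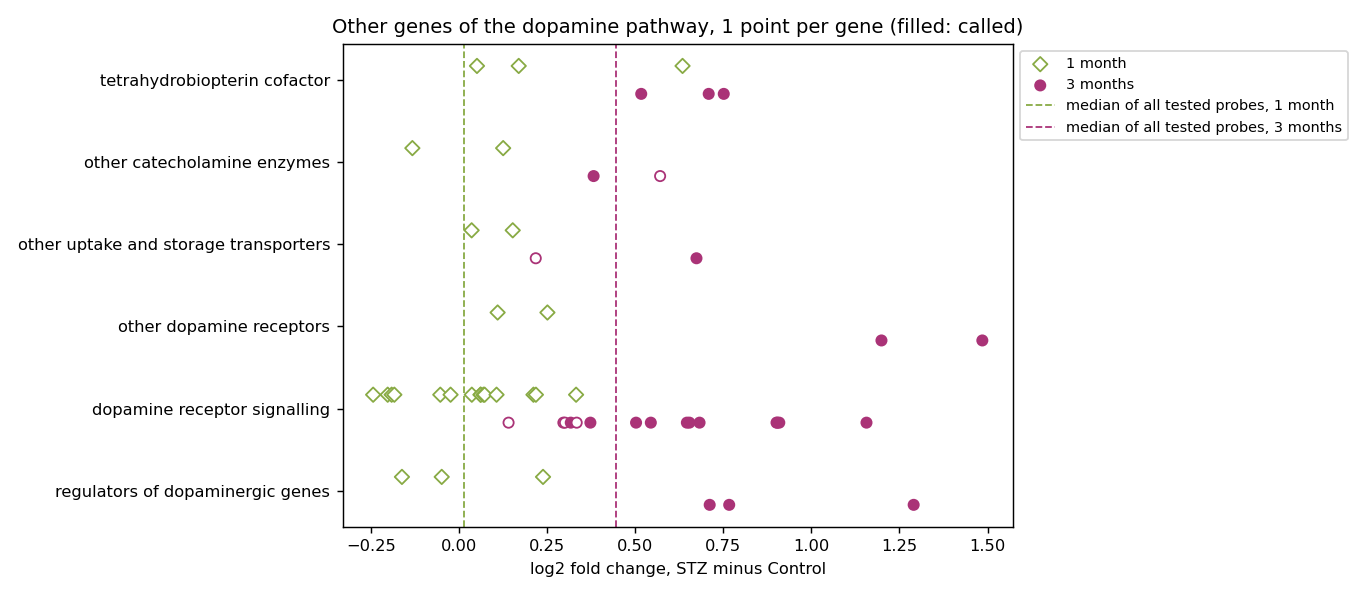
Log2 fold change, STZ minus Control (x axis), of the 27 tested pathway genes by list (y axis), with diamonds at 1 month, circles at 3 months, filled symbols for called genes and dashed lines for the medians of all tested probes, 0.01 and 0.44. At 3 months Drd3 (1.49) and Nr4a1 (1.29) lie farthest right, and all 27 genes lie right of 0.

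Markers of other cells moved with the 3 month groups, as did much of the array. At 3 months 50.5% of all tested probes were called higher, and the median over all tested probes was 0.44 on the log2 scale. No marker list was tested against this share. Of the amacrine list, the class to which the dopaminergic cells belong, 4 of 5 tested genes were called higher (Gad1, Slc32a1, Calb2 and Pax6), while Slc6a9, a glycine transporter, stood at -0.21 (adjusted p = 0.344, limma), and the median log2 fold change was 0.60. The summed scaled intensity of that list ran from 23.2 to 59.9 in 3M controls and from 47.4 to 73.5 in 3M STZ rats. Of a list of noradrenergic nerve genes, which share Th and Slc18a2, 3 of 4 were called higher (sums of 5.04 to 12.2 in controls and 12.2 to 14.2 in STZ rats). Of the Mueller glia list 3 of 4 were called higher (sums of 45.3 to 132 and 130 to 175). Of the lens list 5 of 6 were called higher, and its sums did not overlap, at 108 to 317 in controls and 436 to 765 in STZ rats. Of the retinal pigment epithelium list 0 of 2 were called. Its sums ran from 3.07 to 13.4 in controls and from 2.70 to 97.7 (median 3.91) in STZ rats. A second, dimmer probe of Rpe65, a gene of this list, was called lower (-0.83, adjusted p = 0.0111, limma). Rod genes were bright in every group, with sums of 179 to 503 over the 24 arrays. The part of these cell types in the members' values was not tested.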

How the data were processed

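CodeLink rat whole genome arrays were read in 1 color, with retinal RNA on each of 24 arrays. Per the methods of the study, arrays were scanned with GenePix, and CodeLink software excluded defective spots, subtracted background and normalized within each array. The deposited values are 1 background-subtracted intensity per spot, and that intensity scaled by the authors with a constant near the array median. The genome build is not given in the sources used here. Symbols were given through RefSeq accessions, which matched for 4675 of 5469 probes with one. For each array the deposited intensity was divided here by the median over its 33849 rat probes, raised to 0.01 where lower, and converted to log2. The 22025 rat probes with a median above the 35th percentile of all probes (scaled intensity 0.554) and at least 4 values per group were tested. No group had a missing member value. The software's flags were not used.

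Differences between STZ and control rats came from limma 3.58.1 (R 4.3.3), from 1 model of the 4 groups, with Benjamini-Hochberg adjustment over all tested probes. A probe was called at an adjusted p under 0.05 and at least 1.2-fold, and a difference between time points at an adjusted p under 0.05. The methods' test was a one-way test with unequal variances at p under 0.01 and 1.2-fold. A gene with several probes was represented by its brightest tested probe. Dim members were fitted among all rat probes. The model was tested on simulated data. Arrays were compared for identical values, and 0 pairs were identical. The number of arrays and the signal over background limit the precision. Samples were grouped by their titles, and p-values measure the spread between arrays.

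The members, lists, tests and alternatives were chosen with earlier results of these data known. Named genes are all members, the extremes and called genes of the pathway lists, and the genes most like a member by correlation of group-centred log2 values. Alternatives covered the test, filter, scaling, background, floor, weights, covariates, replicate block and each array left out. Some listed genes are not reported here, and the counts leave them out. Percentile ranks were added after the results had been seen.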

Additional observations from a re-analysis of the deposited data

Results flagged for a closer look

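Of 32 sets of 6 arrays, 1 for each member and group, 2 held an array far from the others, both for Ddc, and chance alone flags about 1 in 20 such sets. In 1M controls the array of rat 5 was the lowest, and its gap to the next was 0.628 of the group's range. In 3M controls the array of rat 2 was the lowest, with a gap of 0.689 of the range. Ddc at 3 months had a log2 fold change of 0.04 without that array, against 0.23 with it, and was not called either way. The interaction of treatment and time was called for none of the 6 tested members (0 of 6, 3 with an unadjusted p under 0.05, limma). Of the 27 tested pathway genes it was called for 8, beside 15.5% of all tested probes, and 16 had an unadjusted p under 0.05. The 8 included Drd3 (1.38, adjusted p = 0.0190, limma) and Drd5 (0.95, adjusted p = 0.0382, limma), the latter not above background at 3 months.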

How the results depend on the processing

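Counts of called members at 3 months (5 in the report) were 0 by the methods' test, before and after adjustment, 0 with array spread as a covariate, 1 with array brightness as a covariate, 1 with quantile normalization within time points, 2 with quantile normalization over all arrays, 2 on within-array ranks and 3 where probes had to pass the limit on all arrays, since only 3 members then were tested. Counts for the pathway genes at 3 months (21) were 9 and 5 by the methods' test before and after adjustment, 0 with array spread, 10 with brightness, 10 and 13 with quantile normalization within time points and over all arrays, and 11 on ranks. At 1 month 1 pathway gene was called by the methods' test and 1 with array weights. The difference between time points was called for 1 member with quantile normalization, 1 on ranks and 4 with array weights. With 1 array left out, 3 to 5 members were called at 3 months and 0 to 4 differed between time points. Other counts kept within 1.5 times their value. The cause of these shifts was not tested. With array spread as a covariate, signs turned at 3 months for Ddc (-0.071), Drd1 (-0.24), Pts (-0.11), Aldh2 (-0.17), Slc18a1 (-0.052) and Gnai1 (-0.29), and in the difference between time points for Ddc (-0.12), Maob (-0.045) and Drd1 (-0.42). The Drd1 difference also turned with quantile normalization over all arrays (-0.11), within time points (-0.12) and on ranks (-1.65 points), as did Pts at 3 months (-0.18, -0.18 and -0.26 points) and Ywhah (-0.0057, -0.0051 and -0.0054 points). None of the values at 1 month that turned had been called. With array weights these were Ddc (-0.050), Maob (-0.17), Drd1 (-0.11), Slc18a1 (-0.053) and Qdpr (-0.019), and with brightness Drd2 (-0.069), Drd3 (-0.032), Gnai2 (-0.061) and Qdpr (-0.013). With 1 array left out, values at 1 month that turned ran from -0.16 to 0.0018 for Th, -0.061 to 0.13 for Ddc, -0.089 to 0.14 for Maob, -0.0059 to 0.26 for Drd1, -0.33 to 0.030 for Aldh2, -0.044 to 0.21 for Gnai2, -0.016 to 0.12 for Slc18a1 and -0.0079 to 0.10 for Qdpr, and the Ddc difference between time points from -0.0042 to 0.29. All other signs of the 8 members held in the alternatives that gave a value. The 3 other pathway genes that turned with quantile normalization are named in the results. Depth limits these values through the dim probes, since 3 of the 6 tested members were not above the bacterial probes on most arrays of 3 months. The replicate numbers in the labels were not taken to pair the rats, since deviations of same-numbered arrays correlated between -0.24 and 0.25. With the replicate block, 5 members and 20 pathway genes were called at 3 months and 0 members at 1 month. The other probe of a gene could not be tried for members, which have 1 probe each.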
